A study of Mesocricetus auratus with 11 samples.

Results

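CpG sites that are both crowded by other CpGs and highly methylated were a small class in the DNA of Syrian hamster fetal cells. A CpG is a cytosine followed by a guanine, and methylation level is the percentage of sequenced reads in which that cytosine was read as methylated. The class was set by local density and by level in primary cells. Density was the number of CpGs listed in any of 11 libraries within 250 bp on each side, the site itself included. Members had at least 10 reads in all 11 libraries, a density of 20 or more, and a pooled level above 80% in primary replicates 1 and 2. They numbered 371 of the 20435 CpGs that met the density and read minimums (1.82%). They made up 0.456% of the 81297 CpGs with 10 or more reads in every library.

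The assay, reduced representation bisulfite sequencing, reads a CpG-rich fraction of the genome: an enzyme cuts at CpG-containing sites, short fragments are kept, and bisulfite makes unmethylated cytosines read as T. The 4 primary libraries came from separate frozen stocks of untreated female fetal cells, taken at gestation day 13.5 after head, viscera and limbs were removed, and thawed without further culture. These stocks mix ectodermal and mesodermal cells at several stages of differentiation, so a level there is a mean over cell types. The other 7 libraries came from MT2, a female line grown from 1 morphologically transformed colony induced by benzo[a]pyrene at 5 µg/mL, with an estimated passage of 28. Of these, 4 wells received vehicle (0.05% DMSO) and 3 wells received 5-aza-2'-deoxycytidine (5aCdR) at 5 µM for 48 h. MT2 is a single line and its wells came from 1 thawed stock, so the spread between wells is technical and p-values for it do not cover variation between lines.

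In mammals, clusters of CpGs are usually kept unmethylated, often at gene promoters, while most isolated CpGs are methylated. Dense CpGs that are methylated in normal cells are known from imprinted regions, repeats, germline genes and the inactive X chromosome of females, and from gene bodies. DNA methyltransferase 1 copies methylation onto the new strand after replication. 5aCdR is a cytidine analogue that is built into DNA and traps that enzyme, so that methylation is lost as cells divide. No gene or repeat is assigned to the sites described here, because positions are on the scaffolds used in the files and no annotation of that assembly was used. Female-linked, imprinted and repeat sites are therefore not told apart.

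High methylation became rarer as density rose. Among CpGs with enough reads in all libraries, 37.6% of those at density 1 to 4 were above 80% in primary replicates 1 and 2. The share was 34.2% at density 5 to 9 and 18.2% at 10 to 19. It was 3.66% at density 20 to 29 and 0.531% at 30 or more. The members therefore stood near the lower edge of the dense range, with a median density of 23 and a maximum of 72. Only 64 of the 371 had a density of 30 or more. Among the members, 210 (56.6%) were at exactly 100% in the pooled reads of primary replicates 1 and 2. All of these values chose the members or followed from the choice, and they are given as a description.

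The members were scattered over 100 scaffolds, of which 37 held a single member. They formed 202 runs in which neighbouring members lay no more than 250 bp apart, and 140 of these runs were lone CpGs. The largest run had 13 members in 285 bp on contig APMT01237528.1. Of the 205 non-overlapping 1 kb tiles that held a member, 62 held 2 or more, and these had 228 of the members. Another well-covered CpG lay within 250 bp of 308 members, with a median of 5 such neighbours. The mean level around these members was 76.5% in primary replicates 3 and 4, against 4.26% around all dense CpGs. All neighbours were above 80% in primary replicates 1 and 2 for 79 members, while 54 members had at least 1 neighbour below 20%. Other members counted among these neighbours, so the mean around members followed in part from the choice. With them included, the surroundings were methylated on average, and some members sat beside unmethylated CpGs.

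Library totals ran from 17834610 to 46148127 reads over listed CpGs. The median member had 26 reads in each of the 2 shallowest vehicle libraries and 78 in the deepest 5aCdR library. With 26 reads, 1 read moves a level by several points, so single CpGs were imprecise and sums over tiles were less so. The pooled level in primary replicates 1 and 2 decided membership, and chance highs there are expected to be lower in other libraries. Primary replicates 3 and 4 did not enter the rule and served as the primary side of each comparison.

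The first question was whether these sites had kept their methylation in the transformed line. The members averaged 84.2% and 84.7% in primary replicates 3 and 4. In the 4 vehicle wells of MT2 they averaged 83.8%, 84.3%, 84.1% and 85.5%. The ranges overlapped: 84.5% ± 0.341 (SD, n = 2) in primary cells and 84.4% ± 0.752 (SD, n = 4) in MT2, a difference of -0.064 percentage points. In replicates 1 and 2, which chose the members, the means were 95.2% and 95.6%. The near-equal mean depended on how members were weighted and chosen. MT2 was lower by 3.49 points (a difference of -3.49) when reads were pooled over members instead of averaging CpGs. The difference was -2.64 points when members were chosen on primary replicates 3 and 4 and compared with replicates 1 and 2. It was -2.60 points among the 89 members with 20 or more reads in every library.

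Less dense CpGs that started equally high were lower in MT2 than in primary cells. At density 1 to 4, the 9168 CpGs above 80% averaged 85.1% ± 0.0751 (SD, n = 2) in primary replicates 3 and 4 and 75.4% ± 0.203 (SD, n = 4) in vehicle wells, a difference of -9.67 points. At density 5 to 9 the means were 85.5% and 78.6%, a difference of -6.84 points over 7538 CpGs. At density 10 to 19 they were 84.0% and 79.0%, a difference of -5.03 points over 2617 CpGs. Thus the primary levels were alike in all 4 classes, and the vehicle level rose with density. In each of these less dense classes both primary libraries lay above all 4 vehicle wells. No test was made of the order across classes, because the members were chosen with results of these data known.

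**Figure D1:**
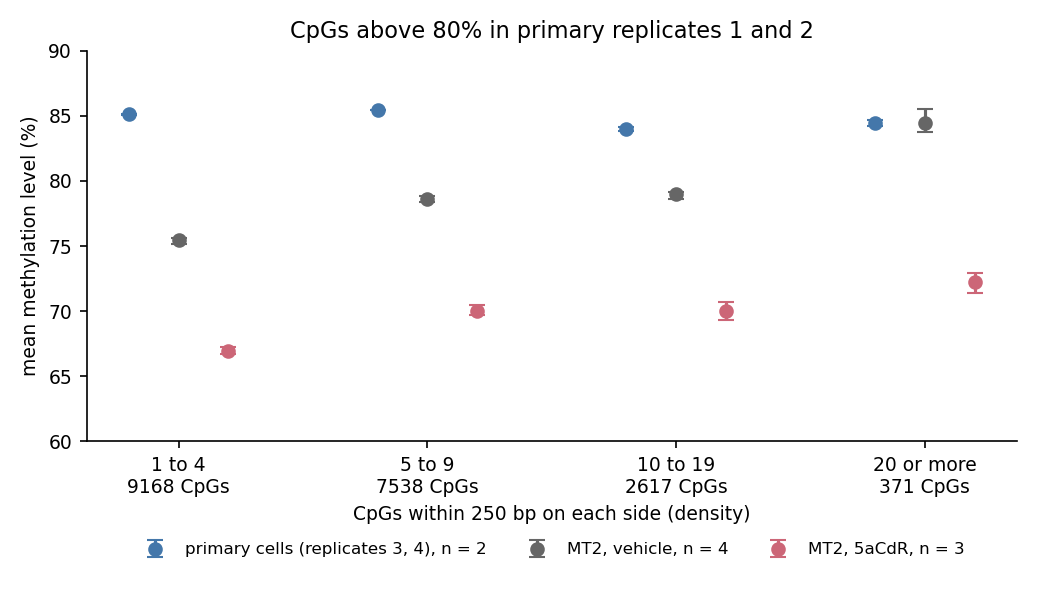
Mean methylation level (y axis, percent, starting at 60) of CpGs above 80% in primary replicates 1 and 2, by density class (x axis, with the number of CpGs). Points are means over libraries and bars run from the lowest to the highest library. Primary cells (replicates 3 and 4) and MT2 vehicle wells are separated in the 3 less dense classes and overlap at density 20 or more, while 5aCdR wells are lowest throughout.

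The same order was seen within bins of starting level. Among CpGs at 80 to 90% in primary replicates 1 and 2, vehicle minus primary was -0.198 points for the 90 members and -12.6 points for CpGs of density 1 to 4. In the bin from 95 to 100% it was 0.461 points for 249 members and -8.18 points at density 1 to 4. The bin from 90 to 95% held only 32 members, with a difference of -3.77 points against -10.8 points. Sequencing depth moved the members' value. It was 1.75 points for the 207 members with a mean of under 50 reads and -2.35 points for the 164 deeper ones. The corresponding differences at density 1 to 4 were -8.26 and -10.3 points. Dense CpGs with lower primary levels were slightly higher in MT2: those at 20 to 80% averaged 37.7% in primary replicates 3 and 4 and 40.4% in vehicle wells. Those below 20% averaged 1.17% and 3.01%.

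At single CpGs, few members passed the test between MT2 vehicle wells and primary replicates 3 and 4. Of the 371, 3 were called lower in MT2 (0.809%, against 1.58% of the 147189 CpGs tested) and 1 was called higher (0.270%, against 0.928%). Calls rest on a quasi-binomial model of the read counts with a dispersion moderated across all CpGs, at a Benjamini-Hochberg adjusted p below 0.05. At density 1 to 4 and the same starting level, 3.64% were called lower and 0.916% higher. Of the members, 26 (7.01%) lay below primary cells without overlap of libraries and 26 lay above, against backgrounds of 9.4% and 5.33%. At an unadjusted p below 0.05, 24 were lower (6.47%, against 9.75%) and 34 higher (9.16%, against 6.76%). The mean was lower at 154 sites (41.5%, against 35.6%) and higher at 159 (42.9%, against 33.4%). The median difference was 0 for the members and for all CpGs tested. These backgrounds were of any level. In the 3 less dense classes above 80%, 49.3% to 56.1% were lower in the mean and 33.8% to 37.6% higher. Without overlap, 9.17% to 16.5% of them were lower and 5.88% to 6.53% higher. At an unadjusted p below 0.05, 10.97% to 18.1% were lower and 9.05% to 10.01% higher. Members were thus less often lower in the mean than less dense CpGs above 80%. The calls rested on few libraries. With any 1 vehicle well left out, no member was called in either direction. Over all CpGs tested, calls fell from 3695 to between 18 and 33 in those settings, so this loss was not particular to the members. Leaving out a primary library leaves 1 sample on that side, so counts of members called in those fits are not compared.

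The vehicle mean and the primary mean of a member differed by a median of 10.0 points in absolute terms, while primary replicates 3 and 4 differed from each other by a median of 7.41 points and the 4 vehicle wells had a median range of 17.1 points. The first value compares means and the others compare single libraries, so they cannot show whether such a difference exceeds the noise. In the less dense classes the median difference of the means was 11.3 to 12.3 points. At 16 members the 2 means were more than 50 points apart. By pooled reads, 249 members (67.1%) were above 80% in primary replicates 3 and 4, and 267 (72.0%) were above 80% in vehicle wells. Of the 249, 203 were above 80% in vehicle wells too, 45 were between 20% and 80%, and 1 was below 20%. Another 63 members were between 20% and 80% in primary replicates 3 and 4 and above 80% in vehicle wells. More members crossed 80% upward than downward.

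**Figure D2:**
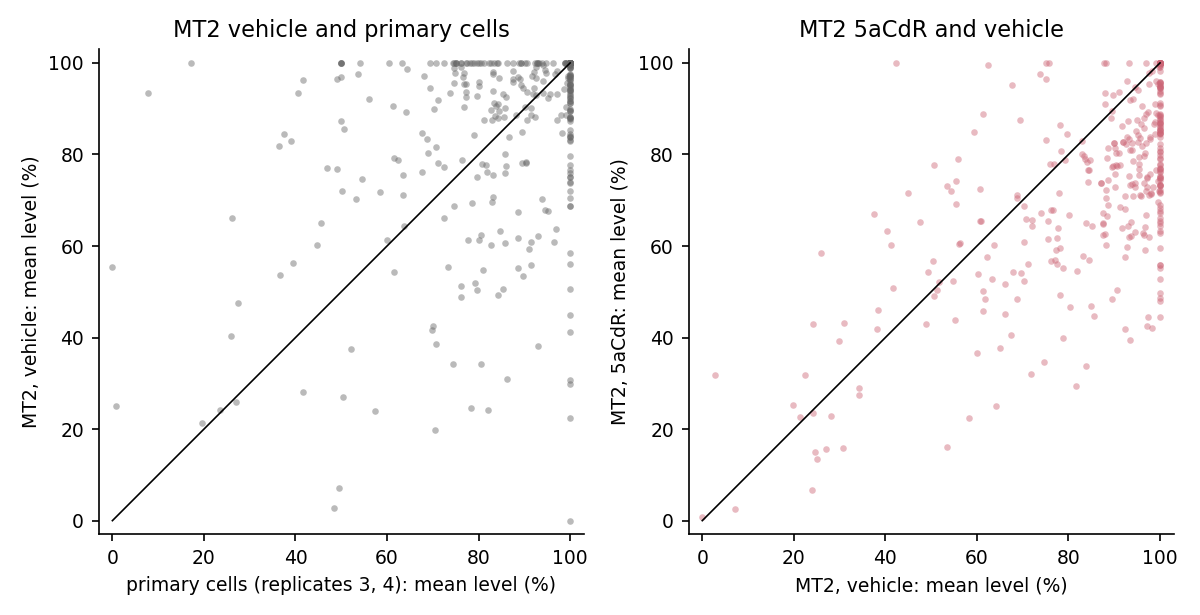
Each point is 1 of the 371 members, with mean level in percent on both axes and a line of equal values. Left, MT2 vehicle wells against primary replicates 3 and 4, with 154 members below and 159 above the line. Right, 5aCdR wells against vehicle wells, with 284 members below and 63 above it.

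The clearest loss in MT2 was on scaffold KB708316.1, in the tile KB708316.1:2654001-2655000, which held 4 members. Its level was 70.3% and 68.9% in primary replicates 3 and 4. It was 48.0%, 46.05%, 47.7% and 47.6% in the vehicle wells. All 4 wells lay below both primary libraries, with little spread in either group. The level fell by 22.3 points (adjusted p = 1.27e-05), and the median library had 7458 reads over its 10 CpGs. This call held with each library left out and was lost with limma on log-ratios (adjusted p = 0.0904), over settings whose adjusted p ranged from 0 to 0.0904. The members in it were lower as a block: they ranged from 76.1% to 84.6% in primary cells and from 34.2% to 63.3% in vehicle wells. Its other 6 well-covered CpGs averaged 74.1% and 53.7%, so the loss was not limited to the members. Depth here was unusual for the class. Members at positions 2654768 and 2654801 averaged 1599 and 1400 reads a library, and other CpGs at 2654739 and 2654782 averaged 2237 and 1796. The median over all members was 46.5 reads. The reason for the high depth was not tested.

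Members KB708316.1:2654801 and KB708316.1:2654768 in that tile were 2 of the 3 single CpGs called lower. At position 2654801 the level was 74.6% and 77.5% in primary replicates 3 and 4. It was 50.8%, 52.2%, 42.8% and 49.3% in the vehicle wells, on 801 to 1743 reads, a difference of -27.3 points (adjusted p = 0.0138). At position 2654768 it was 83.3% and 86.0% in primary cells. The wells read 64.2%, 58.7%, 65.5% and 64.6%, a difference of -21.4 points (adjusted p = 0.0151). Both sites were lower in all 4 wells. Both calls were lost without any 1 vehicle well (adjusted p from 0.0711 to 0.0776) and without primary replicate 4 (0.0648 and 0.0665), while the differences stayed between -28.7 and -19.8 points.

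The other single CpG called lower was an all-or-none site. APMT01219198.1:2050 was at 100% in all 4 primary libraries, on 10 to 59 reads, and at 0% in all 4 vehicle wells, on 11 to 77 reads (adjusted p = 0.0157). In the 5aCdR wells it was at 2.27%, 0% and 0%. A C-to-T difference in DNA sequence reads as lost methylation in this assay, and whether it applies here was not tested. The call was lost without any 1 vehicle well (adjusted p from 0.0719 to 0.0776) or without primary replicate 4 (0.0516), though the difference stayed at 100 points.

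Of the 58 tiles with 2 or more members that could be tested in MT2 vehicle wells against primary cells, 5 were called lower (8.62%, against 7.17% of 17412 tiles) and 1 higher (1.72%, against 4.55%). In the mean, 30 were lower (51.7%, against 42.7%) and 28 higher (48.3%, against 47.3%), with a median difference of -0.861 points against 0 for all tiles. At an unadjusted p below 0.05, 13 were lower (22.4%, against 14.7%) and 6 higher (10.3%, against 11.1%). Without overlap of libraries, 11 were lower (18.97%, against 16%) and 6 higher (10.3%, against 11.4%). The shares of called tiles were near or below the background. Besides the tile on KB708316.1, the other called tiles were each lost when either primary library was left out, which leaves 1 sample on that side. Only 1 tile was called lower without primary replicate 3, and 1 without primary replicate 4. No tile was called higher without vehicle replicate 2 or without either primary library.

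Contigs whose names begin with APMT, which are short unplaced pieces in the files, gave 2 of those tiles. APMT01237528.1:1-1000 held 13 members, more than any other tile. Its level was 79.9% and 80.9% in primary replicates 3 and 4, and 70.9%, 66.0%, 67.1% and 68.7% in the vehicle wells, a difference of -12.2 points (adjusted p = 0.0208). Within it the members averaged 89.6% in primary cells and 82.4% in vehicle wells, while the 6 other well-covered CpGs averaged 71.4% and 54.6%. The member at position 946 went from 100% in both primary libraries to 45.03% ± 32.4 (SD, n = 4), while those at positions 725 and 925 were at 100% in every vehicle well. Change in that run therefore differed from site to site. Its call was also lost without vehicle replicate 3 (adjusted p = 0.0774).

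The other, APMT01220402.1:1-1000, held 7 members. Its level was 100% and 99.6% in primary replicates 3 and 4. The vehicle wells read 82.3%, 83.5%, 90.1% and 80.2%, a difference of -15.8 points (adjusted p = 0.0189) that was lost without vehicle replicate 2 (0.0978). All 4 wells were lower, on 121 to 620 reads. Over all 28 members on such contigs the mean was 93.2% in primary cells and 83.8% in vehicle wells, a difference of -9.41 points. The 343 members on scaffolds named KB averaged 83.8% and 84.5%, a difference of 0.699 points. Of the 28, 13 came from 1 contig, so they were not independent sites.

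Tile KB708147.1:5551001-5552000, with 5 members, read 73.8% and 73.6% in primary replicates 3 and 4. The vehicle wells read 57.8%, 37.8%, 53.1% and 38.7%, a difference of -26.8 points (adjusted p = 0.0401), and the call was also lost without vehicle replicate 2 (0.0658) or 4 (0.112). KB708147.1 held more members than any other scaffold, 21 in all. The median share of reads at those 21 was 1.51 times as high in vehicle wells as in primary cells, against 1.03 over all members; the part of copy number was not tested. Their mean level was 73.7% and 91.4% in primary replicates 3 and 4 and from 76.5% to 92.1% in the vehicle wells, so the groups overlapped widely.

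The smallest of these tiles were the noisiest. KB708322.1:1510001-1511000, with 2 members, was at 100% in both primary libraries. Its vehicle wells read 77.97%, 56.8%, 26.1% and 94.4%, a difference of -36.2 points (adjusted p = 0.0483). One of the primary replicates that chose its members, replicate 1, was at 61.9% over the tile. The call was also lost without vehicle replicate 2 (-25.6 points, adjusted p = 0.254) or 3 (-23.6 points, 0.0539). The spread between wells was thus wider than the distance of the highest well from the primary cells.

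The only tile called higher in MT2 was KB708201.1:7115001-7116000, with 2 members. Its level was 27.6% and 50.0% in primary replicates 3 and 4, and 88.5%, 98.2%, 95.7% and 70.5% in the vehicle wells, a difference of 49.4 points (adjusted p = 0.0340). Primary replicates 1 and 2, which chose its members, were at 72.8% and 100%. The 4 primary stocks therefore differed widely here, and the size of the difference depended on which of them were compared. The call was also lost without vehicle replicate 1 (0.0898) or 2 (0.0621). The member KB708201.1:7115545 was the only single CpG called higher. It was at 26.1% and 8.33% in primary replicates 3 and 4, at 100% in replicates 1 and 2 and in all 4 vehicle wells (adjusted p = 0.0472), on 10 to 46 reads. Its call was lost without any 1 vehicle well or without primary replicate 3 (adjusted p from 0.0599 to 0.141).

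**Figure D3:**
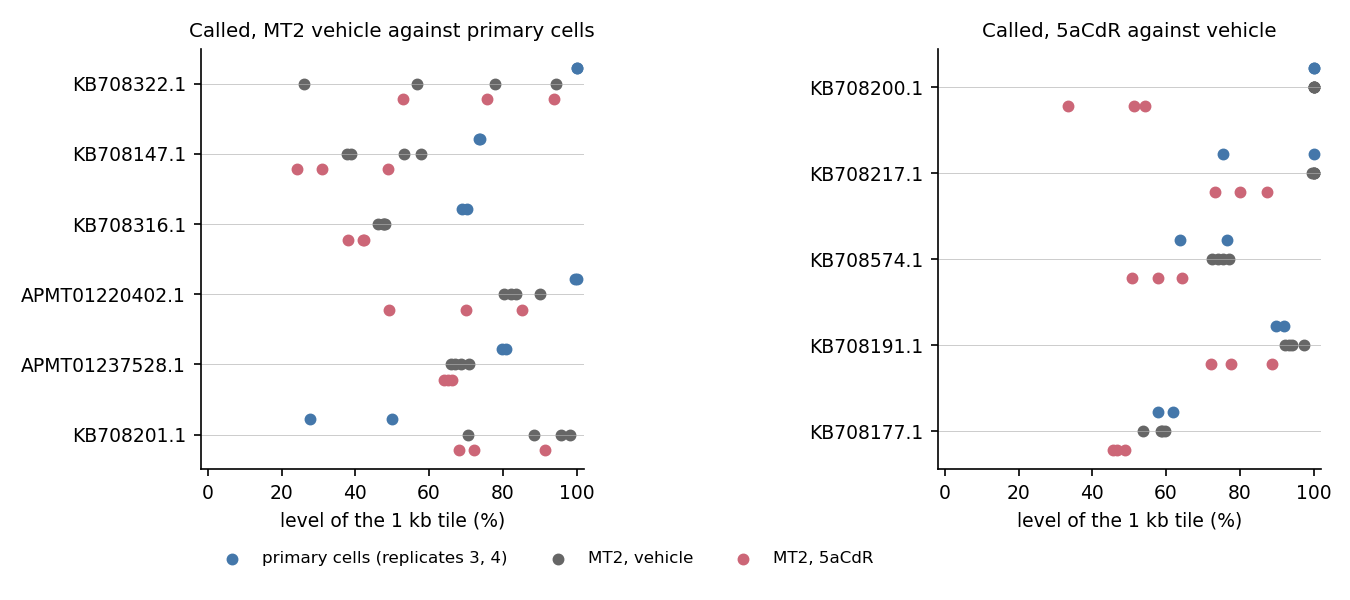
Methylation level of 1 kb tiles (x axis, percent), 1 point per library, for the member tiles called between MT2 vehicle wells and primary replicates 3 and 4 (left) and between 5aCdR and vehicle wells (right), named by scaffold. On KB708316.1 the 4 vehicle wells sit between 46.05% and 48.0%, below both primary libraries, and on KB708200.1 all 3 5aCdR wells sit at or below 54.2% with every vehicle well at 100%.

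The second question was how the members responded to 5aCdR. The vehicle wells are the same libraries as in the comparison above, so the 2 comparisons are not independent. The members averaged 73.0%, 72.4% and 71.4% in the 3 5aCdR wells, against 83.8% to 85.5% in the 4 vehicle wells. All 3 treated wells were below all 4 vehicle wells. The mean was 72.3% ± 0.784 (SD, n = 3) against 84.4% ± 0.752 (SD, n = 4), a difference of -12.2 points and of -14.4% of the vehicle level. Over the alternatives tried it ranged from -13.0 points (at least 20 reads) to -10.05 points (density 15 or more).

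With vehicle, the members averaged 84.4%, and CpGs above 80% at density 10 to 19, 5 to 9 and 1 to 4 averaged 79.0%, 78.6% and 75.4%. Levels were thus alike in primary cells but not in vehicle wells. The difference in points after 5aCdR was larger at the members than at these less dense CpGs. It was -8.95 points at density 10 to 19, -8.60 at density 5 to 9 and -8.48 at density 1 to 4. As a share of the vehicle level it was -11.3%, -10.9% and -11.2%, against -14.4% at the members. It was -16.0% at dense CpGs of 20 to 80% and -14.2% at dense CpGs below 20%, but -9.96% at the members of density 30 or more. Within starting bins of 80 to 90%, 90 to 95% and 95 to 100%, the members' difference was -13.7, -11.3 and -11.7 points. At density 1 to 4 it was -7.65, -8.71 and -8.80 points. Among the members, those with a density of 30 or more had the smallest difference: -8.32 points, with 73.66% to 78.002% in the treated wells and 81.5% to 89.0% in the vehicle wells. Members of density 20 to 24 and 25 to 29 differed by -12.4 and -14.1 points. These are descriptions, and none of the differences between classes was tested. Dense CpGs at 20 to 80% in primary cells averaged 33.99% after 5aCdR, against 40.4% with vehicle.

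The loss was broad but partial. By pooled reads, 143 members (38.5%) were above 80% after 5aCdR, against 267 (72.0%) with vehicle. The CpGs of density 1 to 4 had a like share above 80% after 5aCdR (38.0%) and a lower one with vehicle (57.0%). The number of members between 50% and 80% was 181 after 5aCdR and 75 with vehicle. Members at 20 to 50% numbered 38 and 23, and those below 20% numbered 9 and 6. Of the 267 above 80% with vehicle, 136 were between 20% and 80% after 5aCdR, 131 were still above 80%, and none was below 20%. Members at exactly 100% numbered 32 against 110. The treated libraries were deeper, with median member reads of 52 to 78 against 26 to 53, and a deeper library reads exactly 100% less often at the same true level. The part of depth in that count was not tested.

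**Figure D4:**
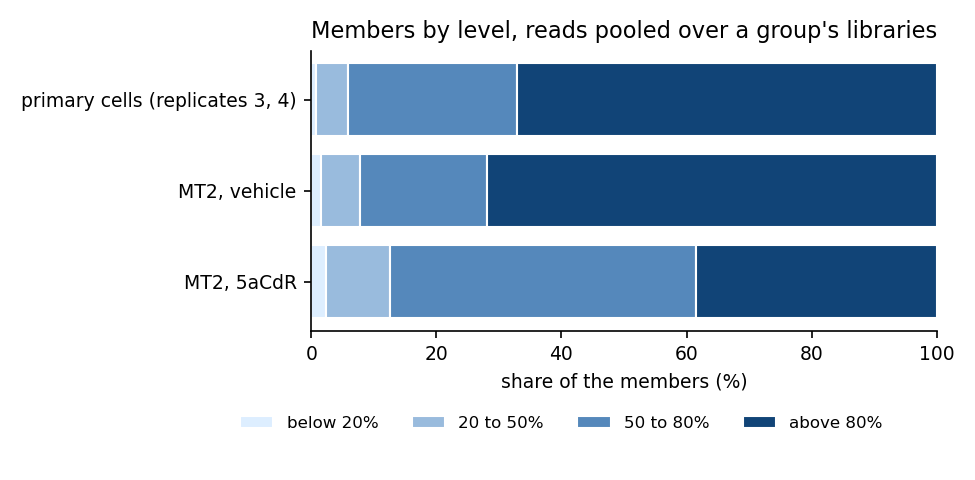
Share of the 371 members (x axis, percent) in 4 classes of level, from reads pooled over the libraries of each group. The class above 80% holds 67.1% in primary replicates 3 and 4, 72.0% in MT2 vehicle wells and 38.5% after 5aCdR, and the class from 50 to 80% grows from 20.2% to 48.8% after 5aCdR.

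No single member passed the test after 5aCdR. Under the moderated quasi-binomial test 0 of 371 were called lower, against 0.084% of the 155920 CpGs tested, and 0 higher, against 0.000641%. The smallest adjusted p was 0.118, and limma on log-ratios called 0 as well. At an unadjusted p below 0.05, 87 members were lower (23.5%) and 3 higher, against 7.58% and 1.19% of all CpGs tested, whatever their level. At density 1 to 4 above 80%, 21.1% were lower at that level. In 69 members (18.6%) all treated wells lay below all vehicle wells, and in 2 all lay above, against 4.39% and 0.829%. At density 1 to 4 above 80% the share below without overlap was 12.6%. The level was lower in the mean at 284 members (76.5%, against 46.1%) and higher at 63 (17.0%, against 27%), with a median of -11.999 points against 0. A fall of 25 points or more was seen at 78 (21.0%, against 10.3%) and a rise of that size at 11 (2.96%, against 2.95%). In the 3 less dense classes above 80%, 69.2% to 70.4% were lower in the mean and 24.3% to 26.5% higher. Falls of 25 points or more were seen at 15.1% to 16.2% of them, and rises of that size at 2.95% to 3.44%.

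Summing reads over tiles gave calls. Of the 59 testable tiles with 2 or more members, 5 were called lower after 5aCdR (8.47%, against 0.783% of 18639 tiles) and 0 higher (against 0.0161%), with 0 higher at an unadjusted p below 0.05 as well (against 1.23%). In the mean 54 of 59 were lower (91.5%, against 61.3%) and 5 higher (8.47%, against 31.8%), with a median of -10.6 points against -1.22. At an unadjusted p below 0.05, 28 were lower (47.5%, against 11.1%). In 16 (27.1%, against 7.62%) all treated wells lay below all vehicle wells, and in 0 they lay above (against 1.19%). The background tiles were of any level, and tiles of low level have little room to fall. No background of tiles with like level was made. The count of calls depended on single libraries. It was 3, 3 and 4 without 5aCdR replicates 1, 2 and 3, and 1, 2, 2 and 0 without vehicle replicates 1, 2, 3 and 4. The call with limma on log-ratios held for 1 tile.

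That tile was KB708200.1:1777001-1778000, with 2 members. Every vehicle well was at 100%, as were primary replicates 3 and 4. The 5aCdR wells read 33.3%, 51.3% and 54.2%, a difference of -53.7 points (adjusted p = 0.0135). The groups were far apart, although the vehicle wells held only 34 to 156 reads. Its 2 members, in 19 bp at positions 1777800 and 1777817, averaged 49.8% and 48.1% after 5aCdR. Of the 8 untreated libraries only primary replicate 2, at 90.4% over the tile, was below 100%. The call was lost without vehicle replicate 3 (difference -35.0 points, adjusted p = 0.126) or 4 (0.115).

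The tile with the most reads among those called was KB708177.1:6518001-6519000, with 6 members in 81 bp. It read 58.5%, 53.6%, 59.7% and 58.9% in the vehicle wells. It read 45.6%, 48.9% and 46.8% in the 5aCdR wells, a difference of -10.6 points (adjusted p = 0.0131) on 1956 to 6163 reads. The treated wells were all lower. The 6 members averaged 84.7% with vehicle and 64.3% after 5aCdR. The other 25 well-covered CpGs of the tile averaged 51.8% and 44.0%. In primary replicates 3 and 4 the members averaged 82.05%, so the vehicle level was like that of primary cells. The first member lay 4 bp from a CpG at 14.1% with vehicle and 13.9% after 5aCdR, at position 6518831. The call was lost without 5aCdR replicate 1 (0.0526) or vehicle replicate 1 (0.0743) or 4 (0.272).

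The called tiles richest in members were on 2 other scaffolds. KB708191.1:9491001-9492000, with 12 members, read 94.1%, 97.3%, 93.4% and 92.4% in the vehicle wells. The 5aCdR wells read 77.7%, 72.2% and 88.6%, a difference of -14.8 points (adjusted p = 0.0400). Its primary replicates 3 and 4, at 89.9% and 92.0%, were close to the vehicle wells. All 12 members averaged 95.4% with vehicle and 76.3% after 5aCdR, with single members after 5aCdR from 42.0% to 96.0%. The call was lost with any library but 5aCdR replicate 3 left out (adjusted p from 0.0834 to 0.154).

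KB708574.1:24001-25000, with 10 members, read 75.3%, 74.1%, 72.4% and 77.0% in the vehicle wells and 64.2%, 57.9% and 50.9% in the 5aCdR wells. The difference was -17.1 points (adjusted p = 0.0338), and the groups did not overlap. Its members averaged 93.7% with vehicle and 66.3% after 5aCdR, while its 6 other well-covered CpGs averaged 58.1% and 39.2%. Members and other CpGs were both lower. The call was lost without any library other than 5aCdR replicate 1 and vehicle replicate 3 (adjusted p from 0.0590 to 0.134).

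KB708217.1:3912001-3913000, with 3 members in 17 bp, read 100%, 100%, 100% and 99.7% in the vehicle wells. The 5aCdR wells read 73.3%, 87.5% and 80.1%, a difference of -19.6 points (adjusted p = 0.0403). Primary replicate 3, at 75.3%, lay among the treated wells, and replicate 4 was at 100%. The call was lost with any 1 library left out (adjusted p from 0.0844 to 0.392), and the difference was -11.92 and -11.99 points without vehicle replicates 2 and 3.

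Not every tile with many members was called. APMT01237528.1:1-1000 read 66.2%, 64.0% and 65.2% after 5aCdR against 66.0% to 70.9% with vehicle, a difference of -3.05 points (adjusted p = 0.528) that was -1.66 and -1.10 points without vehicle replicates 3 and 4. KB708302.1:1420001-1421000, with 8 members in 77 bp, read 91.5%, 98.97%, 95.8% and 98.4% with vehicle and 72.0%, 76.3% and 98.9% after 5aCdR (difference -13.8 points, adjusted p = 0.235). Treated replicate 3 lay among the vehicle wells, and without it the difference was -22.1 points (adjusted p = 0.0434). Without treated replicate 1 it was -8.61 points (adjusted p = 0.595). KB708204.1:3528001-3529000, with 7 members, differed by -9.17 points (adjusted p = 0.344) and its groups overlapped. These values do not show an absence of change.

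Some highly methylated tiles had small differences between 5aCdR and vehicle. They were chosen for that, so their values are a description. KB708926.1:21001-22000, with 4 members, read 85.9%, 91.5%, 93.8% and 85.1% with vehicle and 90.2%, 92.5% and 94.3% after 5aCdR. Its 4 members, in 55 bp, averaged 96.9% with vehicle and were at 100% in every treated well. KB708219.1:5000001-5001000 averaged 80.3% with vehicle and 80.1% after 5aCdR, with wells from 73.2% to 94.8% with vehicle. KB708133.1:18418001-18419000, KB708149.1:8248001-8249000 and KB708147.1:1547001-1548000 differed by -3.59, -3.69 and -4.19 points. Single libraries moved these values. KB708133.1 ranged from -5.79 points without 5aCdR replicate 1 to -2.13 without vehicle replicate 2, with -2.24 without 5aCdR replicate 3. KB708149.1 was at -9.72, -2.16 and -0.514 points without 5aCdR replicates 1, 2 and 3, and at -8.81 and -6.61 without vehicle replicates 2 and 3. KB708147.1 was at -1.76 points without vehicle replicate 3. The sign changed without single libraries for KB708219.1 (from -3.24 to 5.27 points) and KB708926.1 (from -1.64 to 4.84 points). In all 5 the groups overlapped, and they had a median of 188 to 328 reads a library.

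Members near each other differed in like direction to a limited degree. Over 134 pairs of adjacent members within 50 bp, the correlation of their differences was r = 0.378 for 5aCdR minus vehicle and r = 0.297 for vehicle minus primary cells. Such pairs share reads and libraries, so these values describe the sites and have no p. The range over the 3 treated wells at a member had a median of 26.9 points, and that over the 4 vehicle wells 17.1 points. Both exceeded the median size of the treatment difference at single members, 13.8 points. That difference is between means of wells, so it is a measure unlike a range of single wells. The share of a library's reads at a member was 0.947 times as high after 5aCdR as with vehicle (median), against 0.908 times over all common CpGs.

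Sites on either side of the 80% threshold were as follows. The 20 members at 80 to 82% in primary replicates 1 and 2 averaged 78.2% in primary replicates 3 and 4, 76.1% with vehicle and 61.7% after 5aCdR. The 20 dense CpGs at 78 to 80% averaged 66.7%, 59.5% and 45.9%.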

How the data were processed

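Methylation calls per cytosine were deposited for 11 libraries as read coverage (count) and the percent of reads with C or T, per the file headers. Per the submitters' processing notes, the authors' tools included Trim Galore 0.5.0, Bismark 0.22.1, Bowtie2 and methylKit 1.10.0. Genome build and duplicate handling are not given in the sources used here. For each site, methylated counts were recovered from coverage and percent, and both strands of a CpG were summed. The members and lists were chosen with earlier results of these data known.

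Every CpG with 10 or more reads in each library compared, and every 1000 bp tile with 3 or more such CpGs, was fitted with a quasi-binomial logistic model (Python 3.11.15, numpy 2.4.6). Its dispersion was moderated with limma 3.58.1 (R 4.3.3) and not allowed below 1, and p-values were adjusted by the Benjamini-Hochberg method over all units. The code was tested on simulated data in which units of intermediate level were changed. Changes at units as highly methylated as the members were not simulated. Named tiles hold 2 or more members: those called without overlap between libraries (up to 8 falls and 8 rises a comparison), the 5 with the most members, and the 5 above 80% with vehicle that had the smallest 5aCdR difference. Named CpGs are the up to 3 largest falls and rises among called members without overlap. Alternatives covered read minimums, dispersion, limma on log2 ratios with a pseudocount of 1, a replicate block, tile size, membership thresholds and each library left out. Replicate numbers came from sample titles and were not used as pairs in the main fit. Correlations between samples of like and unlike number ran from -0.0164 to 0.0219. They cannot decide whether samples of like number were handled together. Total reads per library bound the precision, and reads were not counted as molecules.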

Additional observations from a re-analysis of the deposited data

Results flagged for a closer look

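In 26 sets of 4 vehicle wells, for the mean levels, named tiles and named CpGs, 2 had 1 well far from the other wells, and chance flags about 1 in 20. Vehicle replicate 4 was at 76.6% in tile KB708149.1:8248001-8249000, against 84.0% to 85.3% in the other wells. It was at 99.7% in tile KB708217.1:3912001-3913000, where the other wells were at 100%, so that gap was 1 unmethylated read.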

How the results depend on the processing

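The mean member difference kept its direction after 5aCdR in every setting, at -13.0 points with 20 or more reads and -10.05 at density 15 or more, and between -12.5 and -11.7 with a library left out. Vehicle minus primary was -2.60 points with 20 or more reads, -2.81 at density 15 or more, -2.64 with members chosen on primary replicates 3 and 4, and -3.49 with pooled reads. With a library left out it was -0.426 to 0.177. Less dense CpGs stayed lower in every setting. For vehicle minus primary at density 1 to 4 the values were -10.3 (20 or more reads), -8.55 (level above 90%), -10.55 (above 70%) and -10.6 (pooled). At density 5 to 9 they were -7.53, -6.26, -7.40 and -8.83, with -6.56 for members chosen on the other primary pair. At density 10 to 19 they were -5.71, -4.63 (level above 90%) and -5.64 (pooled). For 5aCdR minus vehicle they were -7.93 and -8.81 (level above 90%) at density 1 to 4, -8.14 and -9.41 (pooled) at 5 to 9, and -7.07 (pooled) at 10 to 19.

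Counts of calls moved more. Without dispersion, 227 members were called lower and 30 higher after 5aCdR, with 48 and 2 tiles. In MT2 against primary cells it was 118 and 111, with 22 and 18 tiles. Over all units without dispersion, 71101 of 155920 CpGs and 11259 of 18639 tiles were called after 5aCdR, 49201 and 8175 of them lower. In MT2 it was 73842 of 147189 CpGs and 11832 of 17412 tiles, 39910 and 5704 of them lower. The replicate block took samples of like number as pairs, which the titles do not state. It left 0 tiles lower after 5aCdR, 2 lower and 0 higher tiles in MT2, and 0 members in either direction. Over all units the block left 66 tiles and 21 CpGs called after 5aCdR, and 758 tiles and 0 CpGs in MT2. With limma, 1 tile was lower after 5aCdR and 0 in MT2, where 2 members were higher. Over all units limma called 30 tiles and 0 CpGs after 5aCdR, and 1440 tiles and 3956 CpGs in MT2. Tiles lower after 5aCdR numbered 2 at density 25 and 8 at density 15. Members lower and higher in MT2 numbered 1 and 0 without CpGs in the top 0.1% of coverage, 7 and 2 with dispersion from all 3 groups, 8 and 7 at density 15, and 1 and 0 when chosen on the other primary pair. Members lower numbered 0 at density 25 and 1 at level above 90%. Over all CpGs in MT2, calls numbered 2877 of 145511 without the top 0.1% of coverage. They numbered 5416 of 121594 with dispersion from all 3 groups and 1950 of 111554 with the other primary pair. Tiles lower in MT2 numbered 2 with 20 or more reads, 3 with 10 reads in all 11 libraries, 3 at density 25, 19 at density 15 and 11 with 1 or more members. Tiles higher numbered 4 at density 15, 4 with the other primary pair, 2 at level above 70%, 7 with 1 or more members, and 0 with 500 bp tiles or 3 or more members. Over all tiles in MT2, calls numbered 974 of 4938 with 20 or more reads and 1297 of 8929 with 10 reads in all 11 libraries. They numbered 1127 of 12705 with the other primary pair and 1814 of 17014 with 500 bp tiles. The cause of the moves in these counts was not tested.

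With a library left out, tiles lower after 5aCdR numbered 0 to 4, and tiles higher and members called stayed at 0. Calls over all tiles then numbered 41 to 124, and over all CpGs 8 to 110. In MT2, no member was called in either direction with any 1 vehicle well left out, where calls over all CpGs numbered 18 to 33. At density 1 to 4, 5 to 9 and 10 to 19, vehicle minus primary was -9.73 to -9.58, -6.91 to -6.77 and -5.17 to -4.89 points, and 5aCdR minus vehicle was -8.62 to -8.38, -8.86 to -8.45 and -9.29 to -8.60. Tile KB708219.1:5000001-5001000 changed sign to 0.842, 0.00289 and 5.27 points (range -3.24 to 5.27) without 5aCdR replicate 1, 5aCdR replicate 2 or vehicle replicate 3. Tile KB708926.1:21001-22000 changed to -1.64 without vehicle replicate 2 (range -1.64 to 4.84). Leaving out a primary library leaves 1, assumed to vary like the vehicle wells.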
